A study of Mus musculus with 12 samples.

Results

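Iron handling was followed through 10 of the 53465 genes in a liver RNA-seq count table, at 3 ages of mice. The 10 genes were taken by name, with earlier results of these data known. Hamp encodes hepcidin, the liver hormone that lowers iron release into the blood, and Hamp2 is its near-identical neighbour. Bmp6 encodes a ligand that induces hepcidin. Tfr2 encodes transferrin receptor 2, a sensor of iron-loaded transferrin on hepatocytes. Tfrc encodes the transferrin receptor that takes up iron, and Trf encodes transferrin, the iron carrier of plasma. Slc40a1 encodes ferroportin, the iron exporter that hepcidin removes from the cell surface. Fth1 and Ftl1 encode the heavy and light chains of ferritin, the iron store. Scara5 encodes a scavenger receptor that can bind ferritin.

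Livers came from C57BL/6N mice of 3 ages, called young at 3 months, middle-aged at 12 months and aged at 18 months, with 4 livers each. No group carried a treatment or an engineered allele, and each sample was labelled as coming from 1 animal. The study's husbandry text describes male mice. The label on RNA extraction mentions 4 young and 4 old livers and is silent on middle-aged ones, and the design text counts 3 replicates per age where 4 are listed, so how all 12 livers were prepared is uncertain.

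Hepatocytes secrete hepcidin when plasma or tissue iron is high. The iron signal comes from sinusoidal endothelial cells as BMP ligands, which act on hepatocytes through receptors and SMAD proteins, and inflammation adds a second signal through interleukin-6 and STAT3. Inside cells, iron regulatory proteins bind a hairpin in messenger RNAs when iron is scarce. Bound near the start of the message (5′ UTR) they block its translation, and bound in the 3′ UTR of the transferrin receptor message they protect it from decay.

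The hairpins are shown because they are what the ferritin, ferroportin and transferrin receptor messages have in common. A hairpin was searched for as a C, then 5 bases, then the loop CAGTGN, then 5 bases able to pair with the first 5 (G with T allowed), in the UTRs of GENCODE M21 transcripts on GRCm38. Capitals mark the 6 bases of the loop, and each sequence is written 5′ to 3′ on the strand of its gene.
Fth1, 5′ UTR, chr19:9982732-9982761, plus strand: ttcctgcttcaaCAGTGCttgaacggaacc
Ftl1, 5′ UTR, chr7:45459778-45459807, minus strand: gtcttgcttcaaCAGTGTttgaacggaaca
Slc40a1, 5′ UTR, chr1:45925464-45925493, minus strand: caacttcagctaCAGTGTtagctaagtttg
Tfrc, 3′ UTR, chr16:32631219-32631248, plus strand: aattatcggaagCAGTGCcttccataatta
Tfrc, 3′ UTR, chr16:32631598-32631627, plus strand: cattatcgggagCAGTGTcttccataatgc
Tfrc, 3′ UTR, chr16:32631663-32631692, plus strand: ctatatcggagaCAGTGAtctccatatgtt
Tfrc, 3′ UTR, chr16:32631710-32631739, plus strand: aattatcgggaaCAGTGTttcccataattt
The pattern was present in the 5′ UTR of 31 of 21901 protein-coding genes (0.142%) and in the 3′ UTR of 129 (0.589%). Tfrc held 4 matches in its 3′ UTR, and Fth1, Ftl1 and Slc40a1 held 1 each in the 5′ UTR. A match is a description of the letters and does not show binding.

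A promoter element is shown for Hamp and Tfrc because Hamp is a target of BMP signalling. Windows from 250 bases before to 50 after a gene's start came from RefSeq on GRCm38.p6, and existed for 7 of the 10 genes, the exceptions being Trf, Slc40a1 and Scara5. They were searched for GGCGCC, the BMP response element, which reads the same on both strands. Capitals mark the motif.
Hamp, GGCGCC, chr7:30944120-30944149, minus strand: cccgcctgtttGGCGCCactattttcttgg
Tfrc, GGCGCC, chr16:32608796-32608825, plus strand: cctgccgccttGGCGCCttttctaggctac
In Hamp, GGCGCC began 109 bases before the RefSeq start of its window, and in Tfrc 89 bases before that of its window. The gene positions given below are from GENCODE, and their starts differ from these. GGCGCC was in 3898 of 32851 promoter windows (11.87%). In the windows of Hamp2, Tfr2, Fth1, Ftl1 and Bmp6 GGCGCC was not among the letters.

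Gene counts per library ranged from 8124312 to 10527159, so a floor of 3 counts corresponded to 0.285 to 0.369 CPM (counts scaled to a common library total). Normalised counts below are counts divided by DESeq2 size factors. Some libraries stood apart. Young replicate 2 had the highest share of mitochondrial counts (19.2%, others 5.48% to 10.7%) and the highest Saa1, an acute-phase gene, at 4033.5 normalised counts against at most 729.2 in any other liver. Young replicate 3 and middle-aged replicate 1 had the most genes detected, 22284 and 19982 against 16361 to 17563. The counts of the spike-ins, synthetic RNAs added to the samples, split every age into replicates 1 and 2 (set A) and replicates 3 and 4 (set B). The split was read from the counts, and the labels neither name nor explain it. Spike-in counts correlated at 0.9968 or more within a set and at 0.9252 or less between sets. The tissue label was checked on 8 hepatocyte markers, which together reached 881931.7 to 1132202.6 normalised counts.

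Levels per kilobase of exon differed widely between the genes. In young livers the mean normalised count per kilobase was 13298.7 for Hamp, 12448.1 for Ftl1, 4733.5 for Fth1, 2941.1 for Trf, 645.4 for Tfr2, 85.2 for Slc40a1, 47.3 for Tfrc, 27.9 for Scara5, 11.3 for Bmp6 and 5.29 for Hamp2. In aged livers Hamp stood at 23181.4 and Ftl1 at 10906.2 per kilobase. The mean of Bmp6 there (13.9 ± 3.15, SD, n = 4) lay above that of Scara5 (9.91 ± 2.95), with SD ranges that overlapped. In young livers neither Hamp and Ftl1 nor Tfrc and Scara5, neighbours in that order, differed beyond their spread over samples.

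Across the 3 ages, 4 of the 9 genes tested changed (DESeq2 likelihood ratio test, Benjamini-Hochberg adjusted p under 0.05), namely Hamp, Bmp6, Tfrc and Scara5. Hamp2 was too low to receive an adjusted p. Among all 12430 genes tested, 865 were called, or 6.96%. The genes and lists were chosen with earlier results of these data known, so shares beside all genes are a description only. Between middle-aged and young livers 2 of 9 were called in the Wald test, against 6.41% of 11333 genes. Bmp6 was higher, as were 3.51% of all genes, and Scara5 lower, as were 2.90%. Between aged and young livers 3 of 9 were called, against 3.58% of 13527 genes. Hamp was higher, as were 1.87% of all genes, and Tfrc and Scara5 lower, as were 1.71%. None of the 9 was called between aged and middle-aged livers by DESeq2, edgeR or limma, against 1.14% of 10236 genes by DESeq2 (0.537% higher, 0.606% lower), and 2 of the 9, Bmp6 and Scara5, had an unadjusted p under 0.05. The values of the 2 groups did not overlap for 4 of 9 genes in middle-aged against young livers (16.0% of all genes), 2 of 9 in aged against young (7.53%) and 0 of 9 in aged against middle-aged livers (6.55%). The comparisons share samples, so their values are given side by side and not as separate support. The median log2 fold change over the 9 genes was -0.13, -0.057 and 0.068 in these 3 comparisons, beside 0.0065, -0.0003 and 0.005 over all genes tested. In whole liver, fewer cells of a type and less RNA per cell cannot be told apart.

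**Figure D1:**
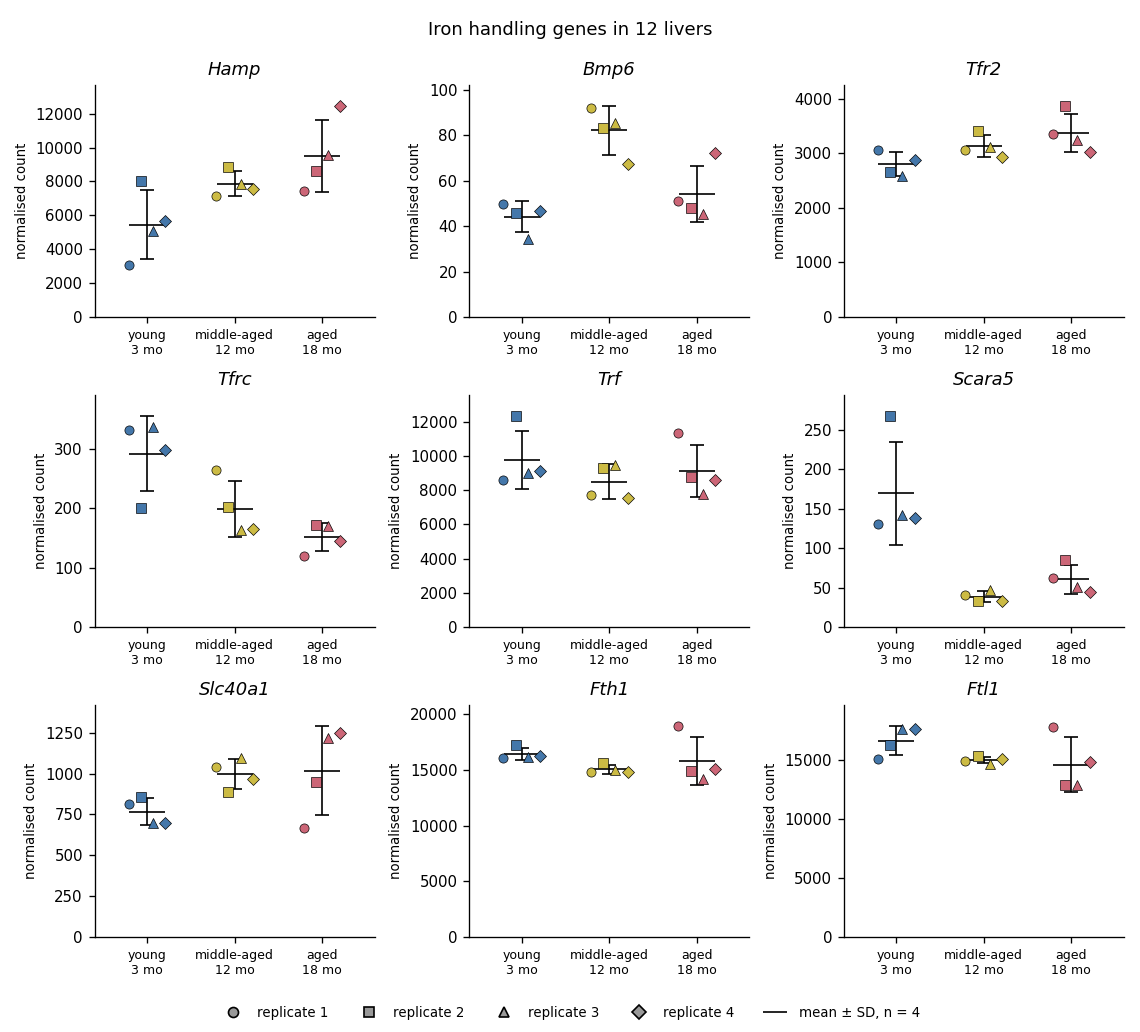
Normalised counts (y axes, linear, from 0) of the 9 measurable iron handling genes in each liver by age (x axes), with the mean and SD of 4 livers. Scara5 and Tfrc lie lower in all aged livers than in any young one, Bmp6 is highest in the middle-aged livers, and aged replicate 1 (circle) stands apart in Slc40a1, Fth1 and Ftl1.

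**Figure D2:**
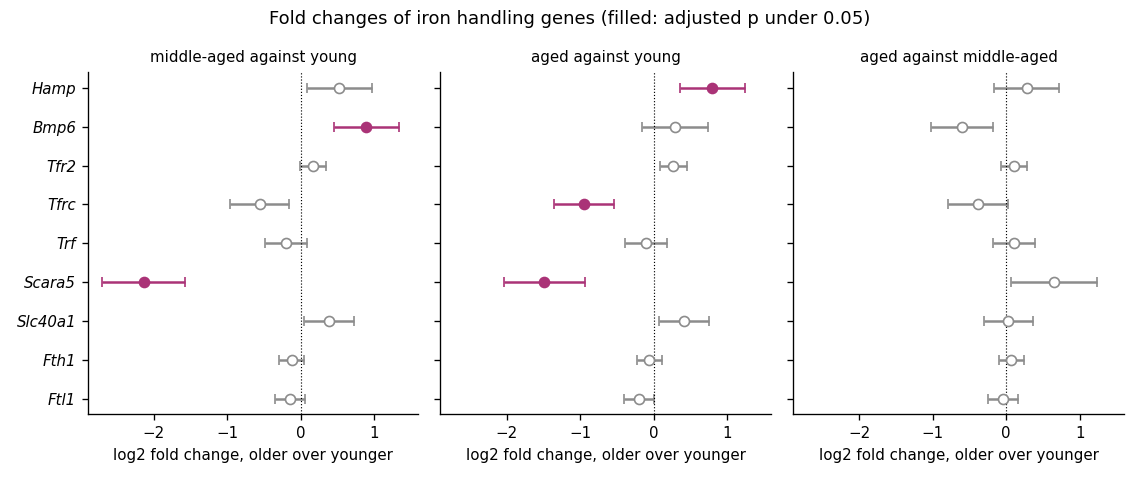
Log2 fold changes (x axes, older over younger) of 9 genes in 3 comparisons, with 95% intervals from DESeq2. Filled symbols mark an adjusted p under 0.05: Bmp6 (0.89) and Scara5 (-2.14) in middle-aged against young, Hamp (0.80), Tfrc (-0.94) and Scara5 (-1.49) in aged against young, and none in aged against middle-aged.

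Hepcidin mRNA was higher in aged than in young livers. Hamp (ENSMUSG00000050440, chr7:30942368-30944032, minus strand, GRCm38) had normalised counts of 3048.6, 8040.2, 5083.1 and 5637.9 in young replicates 1 to 4. Middle-aged livers gave 7168.6, 8879.3, 7824.3 and 7532.8, and aged livers 7408.4, 8632.6, 9535.1 and 12441.4. Young replicates 1, 3 and 4 lay below every older liver, and young replicate 2, the liver with the high Saa1, lay among them. The means were 5452.5 ± 2053.1, 7851.3 ± 736.0 and 9504.4 ± 2143.2 (SD, n = 4).

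Aged over young, Hamp rose 1.74-fold, or 0.80 on the log2 scale (SE 0.229), with a DESeq2 adjusted p of 0.0203. Middle-aged over young the log2 fold change was 0.53 (SE 0.229, adjusted p = 0.146), and aged over middle-aged it was 0.28 (95% interval -0.17 to 0.72, adjusted p = 0.813). The aged call was lost in edgeR's quasi-likelihood test (log2 fold change 0.80, adjusted p = 0.0979). Without young replicate 2, Hamp was called in both comparisons with young livers, with log2 fold changes of 0.78 (adjusted p = 0.0111) and 1.05 (adjusted p = 9.67e-05). Leaving out young replicate 3, aged replicate 3 or aged replicate 4 ended the aged call. Within set A the log2 fold change of aged over young was 0.54 (adjusted p = 1.0), and within set B it was 1.03 (adjusted p = 2.67e-12). These fits held only 2 livers per age. The interaction of set and age for Hamp in aged over young livers, added after seeing the data, was 0.50. Its SE was 0.577 and its unadjusted p in the DESeq2 Wald test 0.384, so a difference between the sets was not shown.

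Hamp2 (ENSMUSG00000056978, chr7:30922372-30924681, minus strand) was close to absent. It had 22 counts over the 12 libraries, with at most 6 in any and 0 in 5 of them, where Hamp had 93910. The coding sequences of the pair are 92.5% identical, and their transcripts share a run of 87 bases, so reads could have been assigned to either gene. No fold change is given for Hamp2. Adding its counts to those of Hamp left the log2 fold change of Hamp at 0.53 for middle-aged over young.

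Bmp6, the ligand, had its highest level at 12 months. Bmp6 (ENSMUSG00000039004, chr13:38345107-38500302, plus strand) had normalised counts of 49.9, 45.8, 34.4 and 46.9 at 3 months, 92.3, 83.5, 85.7 and 67.2 at 12 months and 51.2, 48.2, 45.4 and 72.4 at 18 months. Every middle-aged liver lay above every young one, and the aged livers overlapped both groups. Middle-aged over young, Bmp6 rose 1.85-fold (log2 fold change 0.89, SE 0.223, adjusted p = 0.00381). Aged over young the log2 fold change was 0.29 (95% interval -0.16 to 0.74, adjusted p = 0.595). Aged over middle-aged it was -0.60 (SE 0.213, unadjusted p = 0.00517, adjusted p = 0.177), so the lower level at 18 than at 12 months did not pass the test.

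Counts of Bmp6 were low, 29 to 97 per library. Within set A its log2 fold change in middle-aged over young livers was 0.88 and the call was lost (adjusted p = 0.473). Without middle-aged replicate 1, 2 or 4 DESeq2 gave it no adjusted p, and the log2 fold changes were then 0.83, 0.88 and 0.97, with unadjusted p values of 0.000916, 0.000625 and 5.5e-05. Within set B there was no adjusted p either, with a log2 fold change of 0.90 and an unadjusted p of 0.0576, so neither set alone gave a call. The 3′ end of Bmp6 overlaps Txndc5 on the opposite strand, and the strand setting used in counting was not given in the sources used here. Txndc5 had means of 1623.9, 1544.4 and 1533.4 normalised counts, and its log2 fold changes lay between -0.08 and -0.01.

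Hamp had its highest mean in aged livers and Bmp6 in middle-aged ones, though neither was called between these ages, and within set A the Hamp means were 8024.0 at 12 and 8020.5 at 18 months. The ratio of Hamp to Bmp6 normalised counts was 126 ± 48.9 at 3 months, 96.9 ± 15.5 at 12 months and 176 ± 26.8 at 18 months (SD, n = 4). Over the 12 livers the Pearson correlation of their log2(normalised count + 1) was 0.38, a description over samples that share the age groups.

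Other genes of hepcidin regulation were taken from a list of 19, of which 18 could be tested. Id1 and Smad6, both known targets of BMP signalling, rose in aged over young livers, 2 of 18 beside 1.87% of all genes called higher. There edgeR called 0 and limma 1 of the 18. None of the 18 was called in middle-aged over young livers, where 6 had an unadjusted p under 0.05, nor in aged over middle-aged livers, where 2 did, and edgeR and limma called 0 in both. DESeq2 called 6.41% and 1.14% of all genes tested in these 2 comparisons. Across the 3 ages Id1, Smad6 and Atoh8 were called, 3 of 18 beside 6.96% of all genes. In aged over young livers 15 of the 18 log2 fold changes were above 0, with a median of 0.19, against -0.0003 over all genes tested.

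Id1, an inhibitor of DNA binding, had 27.6, 87.9, 53.3 and 53.7 normalised counts in young livers and 67.2, 83.8, 208.9 and 210.1 in aged ones, and 59.6 to 81.2 in middle-aged ones. Aged replicates 3 and 4 stood far above the rest, and young replicate 2 lay above aged replicates 1 and 2. Id1 had a log2 fold change of 1.36 in aged over young livers (DESeq2 adjusted p = 0.0212), and the call was lost in edgeR, in set A and without young replicate 1, aged replicate 3 or aged replicate 4. Smad6, an inhibitory SMAD, ranged from 45.6 to 76.1 in young and from 87.4 to 120.4 in aged livers, with no overlap. Its log2 fold change was 0.75 (adjusted p = 0.0252), and the call was kept in 12 of 24 alternatives.

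Smad7, the other inhibitory SMAD, had a log2 fold change of 0.72 in aged over young livers that missed the threshold (adjusted p = 0.122). Atoh8, a transcription factor downstream of BMP signalling, had means of 190.4, 171.8 and 311.3 normalised counts and was called across the 3 ages (adjusted p = 0.0337) but in no pairwise comparison. Apart from Bmp6, the upstream parts of the pathway were not called. Hfe2, the symbol used here for hemojuvelin, had means of 877.7, 844.9 and 886.0, and Hfe had 514.3, 514.0 and 519.0. Bmp2, the other endothelial BMP, and Tmprss6, the protease that cleaves hemojuvelin, had log2 fold changes of -0.19 and -0.03 in aged over young livers, with adjusted p values of 0.646 and 0.931.

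**Figure D3:**
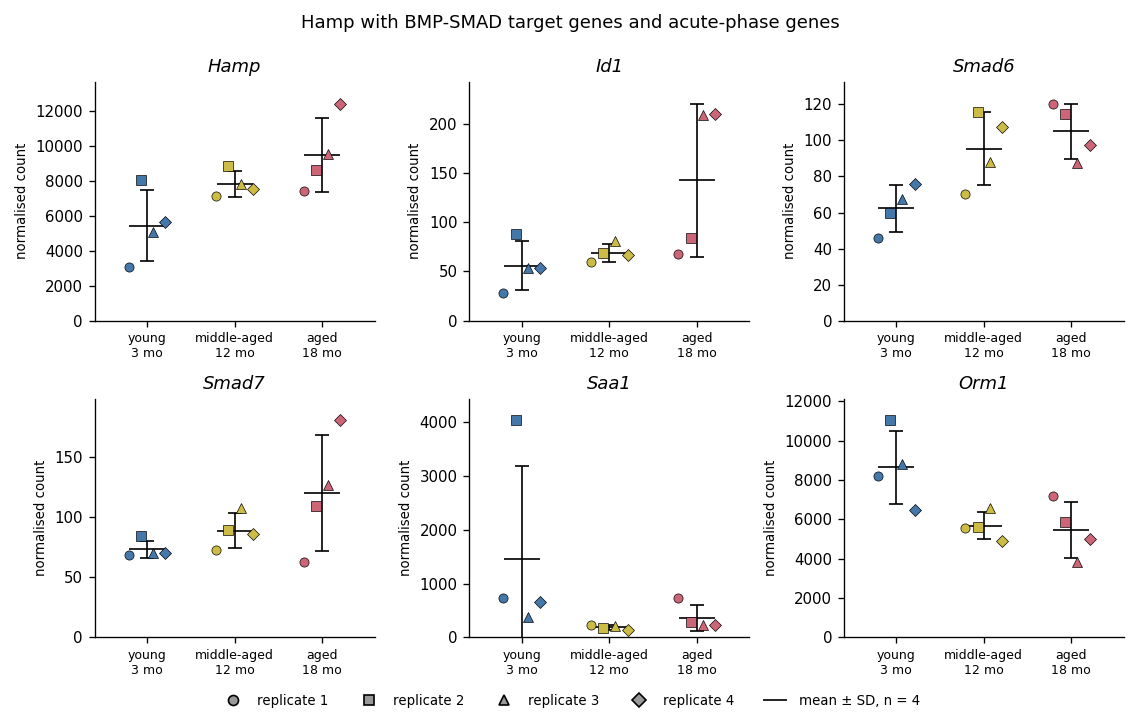
Normalised counts (y axes, linear, from 0) by age (x axes) of Hamp, of the BMP-SMAD targets Id1, Smad6 and Smad7 and of the acute-phase genes Saa1 and Orm1 in each liver, with mean and SD of 4 livers (SD bars are cut at 0). Id1 reaches 208.9 and 210.1 in aged replicates 3 and 4, and Saa1 reaches 4033.5 in young replicate 2.

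Acute-phase genes mark inflammation, the other input to hepcidin. Of 8 acute-phase genes, Saa1, Saa2 and Orm1 fell in middle-aged over young livers and Orm1 and Orm2 in aged over young livers, and none rose. All-gene shares called lower were 2.90% and 1.71%, and of the 8 genes edgeR called 1 and 0 and limma 1 and 1. Saa1 had a log2 fold change of -2.97 (adjusted p = 0.0021) in middle-aged over young livers. The summed level of the 8 genes was 34503.2 to 57279.9 normalised counts at 3 months, 28838.4 to 34180.1 at 12 months and 26072.8 to 51217.3 at 18 months. Young replicate 2 and aged replicate 1 were the highest of their groups. The part of these genes in the Hamp result was not tested.

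The genes whose levels followed Hamp most closely, among 8888 genes averaging 50 normalised counts or more, were Pla2g15 (Pearson r = 0.945), Plcb3 (0.893) and Id1 (0.875) over 12 livers. For Bmp6 they were Slc25a21 (0.889), Rnf103 (0.882) and 9430038I01Rik (0.881). These correlations describe 12 libraries in 3 age groups and carry no test.

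The transferrin receptor message was lower with age. Tfrc (ENSMUSG00000022797, chr16:32608920-32632794, plus strand) had normalised counts of 332.2, 201.2, 337.7 and 298.7 at 3 months, 264.1, 202.0, 164.2 and 165.4 at 12 months and 120.4, 171.5, 170.4 and 145.7 at 18 months. All aged livers lay below all young ones, and the middle-aged livers overlapped both. Tfrc fell by 0.94 on the log2 scale in aged over young livers, 1.92-fold lower (SE 0.206, adjusted p = 0.000673). The call held in 23 of 24 alternatives, set A being the exception (log2 fold change -0.87, adjusted p = 0.24). Middle-aged over young the log2 fold change was -0.56 (SE 0.204, adjusted p = 0.0733), and 5 of 24 alternatives called it. Among them were the fits without young replicate 2 (-0.70, adjusted p = 0.0143) and without middle-aged replicate 1 (-0.73, adjusted p = 0.0124). The others were limma, set B and the fit without aged replicate 1.

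Tfrc is also abundant in young red blood cells, so erythroid markers are given beside it. Their summed level was 22970.6 to 86375.1 normalised counts at 3 months, 12819.1 to 49857.8 at 12 months and 9671.9 to 21236.6 at 18 months. In aged over young livers 2 of 6 erythroid markers fell, beside 1.71% of all genes called lower. They were Hbb-bs (log2 fold change -1.67, adjusted p = 0.0498) and Alas2 (-0.60, adjusted p = 0.0255), and the other 4 also had log2 fold changes below 0. Of the 6, edgeR called 0 and limma 1, and 5 had an unadjusted p under 0.05. Young replicate 2 had the highest erythroid sum, 86375.1, and the lowest Tfrc of the young livers, 201.2. The part of erythroid RNA in the Tfrc result was not tested.

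Transferrin receptor 2 and transferrin were not called in any comparison. Tfr2 (ENSMUSG00000029716, chr5:137569840-137587481, plus strand) had 3066.6, 2656.7, 2589.0 and 2881.0 normalised counts at 3 months, 3067.0, 3417.9, 3121.4 and 2928.5 at 12 months and 3359.0, 3864.5, 3247.4 and 3021.4 at 18 months. Of the aged livers, only replicate 4 lay within the young range, and of the middle-aged livers replicate 4 did. The log2 fold change of aged over young was 0.27 (95% interval 0.09 to 0.45, adjusted p = 0.078), and 4 of 24 alternatives called it. The ratio of Tfr2 to Tfrc was 9.94 ± 2.34 at 3 months, 16.3 ± 3.25 at 12 months and 22.6 ± 3.83 at 18 months (SD, n = 4). The aged ratios, 19.1 to 27.9, lay above the young ones, 7.67 to 13.2. Tfrc alone already separated aged from young livers, so the ratio adds no separate result on Tfr2.

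Trf (ENSMUSG00000032554, chr9:103204001-103230444, minus strand) had 8585.2, 12325.8, 9013.4 and 9133.0 normalised counts in young and 11347.4, 8740.5, 7803.9 and 8586.0 in aged livers, with 7569.9 to 9448.1 in middle-aged ones. Young replicate 2 and aged replicate 1 were the highest, and the 3 groups overlapped. The log2 fold change of aged over young was -0.10 (95% interval -0.38 to 0.19, adjusted p = 0.822), and it turned to 0.02 with total gene counts as size factors.

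Ferroportin mRNA separated middle-aged from young livers without passing the test. Slc40a1 (ENSMUSG00000025993, chr1:45908068-45926523, minus strand) had 814.2, 857.1, 699.1 and 696.1 normalised counts at 3 months, 1042.5, 888.8, 1094.0 and 968.2 at 12 months and 665.4, 946.9, 1217.3 and 1247.0 at 18 months. Every middle-aged liver lay above every young one, and aged replicate 1 lay below all of them. Middle-aged and young livers did not overlap, in either direction, for 16.0% of all genes tested. The log2 fold change was 0.38 in middle-aged over young (SE 0.173, adjusted p = 0.167) and 0.41 in aged over young livers (SE 0.173, adjusted p = 0.179).

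The value at 18 months moved with aged replicate 1 and with the setting. With all 12 livers, aged over young was called by limma and with total gene counts as size factors. Without aged replicate 1, the log2 fold change of Slc40a1 in aged over young livers was 0.57 (adjusted p = 0.000413) and that in middle-aged over young livers 0.38 (adjusted p = 0.0191). In that fit 10.5% and 9.72% of all genes tested were called, against 3.58% and 6.41% with all 12 livers. Within set B, which lacks that liver, aged over young gave 0.82 (adjusted p = 1.97e-06), and within set A it gave -0.05 (adjusted p = 1.0). An interaction of set and age, added after these values were seen, was 0.87 (SE 0.249, adjusted p = 0.0541).

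The ferritin chains were the most abundant of these messages after Hamp per kilobase, and neither was called. Fth1 (ENSMUSG00000024661, chr19:9980598-9985098, plus strand) had 16060.1, 17244.5, 16132.1 and 16246.0 normalised counts at 3 months, 14797.0, 15664.9, 14960.7 and 14787.0 at 12 months and 18942.4, 14929.3, 14158.9 and 15098.1 at 18 months. Every middle-aged liver lay below every young one, and of the aged livers only replicate 1 did not. Ftl1 (ENSMUSG00000050708, chr7:45457944-45459884, minus strand) had 15123.9, 16305.8, 17654.7 and 17637.2 at 3 months, 14966.8, 15372.2, 14695.8 and 15119.8 at 12 months and 17835.5, 12891.1, 12896.1 and 14834.4 at 18 months. Aged replicate 1 was the highest of all 12 livers in both chains and the lowest in Slc40a1.

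The log2 fold change of aged over young was -0.06 for Fth1 (95% interval -0.23 to 0.11, adjusted p = 0.83), turning to 0.06 with total gene counts as size factors, and -0.19 for Ftl1 (95% interval -0.39 to 0.01, adjusted p = 0.363). Without aged replicate 1 both were called lower, Fth1 at -0.16 (adjusted p = 0.0211) and Ftl1 at -0.30 (adjusted p = 0.00275). In that fit 10.5% of all genes tested were called, against 3.58% with all 12 livers. The ratio of Ftl1 to Fth1 was 1.02 ± 0.0846 at 3 months, 0.999 ± 0.0208 at 12 months and 0.925 ± 0.0502 at 18 months (SD, n = 4). Of 5 annotated ferritin copies, Ftl1-ps1 had the most counts, 7 to 24 per library, where Ftl1 had at least 12803.

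Of the 36 pairs among the 9 genes, the largest correlation was that of Trf with Fth1, at 0.834 over the 12 livers, and the search found no hairpin in Trf. Among the 3 genes with a hairpin in the 5′ UTR, the Pearson correlation of Slc40a1 was -0.791 with Fth1 and -0.801 with Ftl1, and that between Fth1 and Ftl1 was 0.779. Tfrc, with its hairpins in the 3′ UTR, had correlations of -0.0473 with Fth1 and 0.287 with Ftl1. Its correlation with Hamp was -0.758, and that of Bmp6 with Scara5 was -0.75. These describe 12 libraries that share age groups and spike-in sets.

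**Figure D4:**
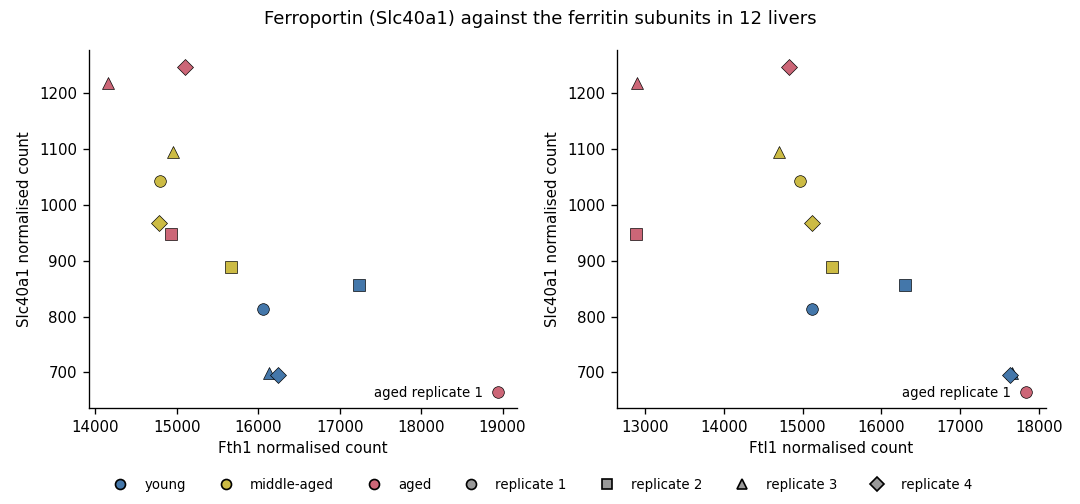
Normalised counts of Slc40a1 (y axes) against Fth1 (left x axis) and Ftl1 (right x axis), 1 point per liver, coloured by age and shaped by replicate number. Aged replicate 1 lies at the lower right, with the lowest Slc40a1 (665.4) and the highest Fth1 (18942.4) and Ftl1 (17835.5).

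Scara5 had the largest change of the 9 genes tested. Scara5 (ENSMUSG00000022032, chr14:65666403-65764826, plus strand) had normalised counts of 130.6, 267.5, 142.2 and 138.6 at 3 months, 40.7, 33.2, 46.8 and 33.1 at 12 months and 62.2, 84.8, 50.7 and 43.8 at 18 months. The lowest young liver lay above the highest older one, and young replicate 2 was far above the other young livers. The means were 169.7 ± 65.3, 38.5 ± 6.61 and 60.4 ± 18.0 (SD, n = 4).

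Scara5 fell by 2.14 on the log2 scale in middle-aged over young livers, 4.4-fold lower (SE 0.289, adjusted p = 2.19e-10). In aged over young livers it fell by 1.49, 2.81-fold lower (SE 0.281, adjusted p = 4.15e-05). Aged over middle-aged, the log2 fold change was 0.65 (SE 0.297, unadjusted p = 0.0296, adjusted p = 0.405). Both falls were called in all 24 alternatives, among them edgeR, both spike-in sets and each left-out liver. Without young replicate 2 they were -1.83 and -1.19.

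Scara5 is known mainly from fibroblast-like cells, so stellate cell and fibroblast markers are given beside it. Their summed level was 1602.2 to 3580.0 normalised counts at 3 months, 2007.6 to 4396.5 at 12 months and 1767.6 to 3457.2 at 18 months, and all 3 groups overlapped. The marker Dcn gave the largest part of the sum, with a mean of 1293.1 of 2533.0 in young livers. Of 10 markers, none was called in middle-aged over young livers, where Scara5 fell most, by DESeq2, edgeR or limma, and 0 had an unadjusted p under 0.05. DESeq2 called 6.41% of all genes tested in that comparison, and a count of 0 among 10 genes lies close to that share. Dpt, which encodes a matrix protein, was called lower in aged livers, with a log2 fold change of -1.49 over young (adjusted p = 0.0439) and -1.62 over middle-aged livers (adjusted p = 0.0484), calls that neither edgeR nor limma made. All-gene shares called lower there were 1.71% and 0.606%. Log2 fold changes were above 0 for 8 of the 10 in middle-aged over young livers (median 0.13). They were below 0 for 7 in aged over young (median -0.43) and for 10 in aged over middle-aged livers (median -0.49). The part of these cells in the Scara5 result was not tested.

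The genes most like Scara5 over 12 livers were Ostc (r = 0.952), Gtf2b (0.929) and Hsd17b2 (0.929). The means of Ostc, 646.6, 399.0 and 474.9 normalised counts, had the same order over the ages as those of Scara5. The genes most like Tfrc were Nabp1 (0.875), Zkscan3 (0.87) and Mtap (0.856).

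Few markers of other cell types were called. No sinusoidal endothelial, Kupffer cell or hepatocyte marker, 8 in each list, was called in any of the 3 comparisons by DESeq2, edgeR or limma. At an unadjusted p under 0.05 there were 2 hepatocyte, 2 sinusoidal endothelial and 3 Kupffer cell markers in middle-aged over young livers. In the same order there were 3, 0 and 0 in aged over young livers, and 1 in each list in aged over middle-aged livers. All-gene shares called by DESeq2 in these 3 comparisons were 6.41%, 3.58% and 1.14%. A count of 0 among 8 genes lies close to these shares. Summed sinusoidal endothelial markers, the main source of Bmp6, were 1749.5 to 3063.0 normalised counts at 3 months, 1913.3 to 2265.2 at 12 months and 2059.4 to 2283.0 at 18 months. Summed Kupffer cell markers were 3472.1 to 6283.9, 3029.2 to 4015.9 and 3564.6 to 5332.0.

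Of 72 further genes of iron handling in 5 lists, few were called. In middle-aged over young livers 3 of 68 tested were called, among them Lrp1 (higher) and Bola3 (lower). In aged over young livers 6 of 70 were called, Cp, Id1 and Smad6 higher and Alas2, Bola3 and Nfs1 lower. In aged over middle-aged livers DESeq2, edgeR and limma called none of 67, and 9 had an unadjusted p under 0.05. The shares, 4.41% and 8.57%, stood beside 6.41% and 3.58% of all genes.

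Among 16 genes of uptake and export, Cp rose in aged livers. Cp encodes ceruloplasmin, the ferroxidase that works with ferroportin, and had means of 8095.7 ± 380.8, 8889.1 ± 311.8 and 10843.6 ± 1291.0 normalised counts (SD, n = 4). All aged livers lay above all young ones, and the log2 fold change was 0.42 (adjusted p = 0.000135), called in 23 of 24 alternatives. Lrp1, the receptor for haem bound to haemopexin, rose by 0.43 on the log2 scale in middle-aged over young livers (adjusted p = 0.0181) and kept the call in 16 of 24 alternatives. The divalent metal transporters Slc11a2 and Slc39a14 and the ferrireductase Steap3 had log2 fold changes between -0.14 and 0.02 in aged over young livers. Hpx, Hp and Lcn2, which carry haem, haemoglobin and iron-binding siderophores, had -0.21, -0.06 and -0.34, with adjusted p values of 0.552, 0.936 and 0.799.

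Of the genes of iron sensing and storage, none of 7 tested was called in any comparison by DESeq2, edgeR or limma. At an unadjusted p under 0.05 there were 2 in middle-aged over young livers, 0 in aged over young and 1 in aged over middle-aged. All-gene shares called by DESeq2 were 6.41%, 3.58% and 1.14% in that order. A count of 0 among 7 genes lies close to these shares. Aco1 and Ireb2, which encode the iron regulatory proteins, had log2 fold changes of 0.08 and 0.04 in aged over young livers. Fbxl5, which marks Ireb2 protein for breakdown, had 0.14, and Ncoa4, which sends ferritin for breakdown, 0.17.

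In haem synthesis and breakdown, Alas2, the erythroid enzyme of the first step, fell by 0.60 on the log2 scale in aged over young livers (adjusted p = 0.0255). Alas2 is also 1 of the 6 erythroid markers above. Alas1, the hepatic enzyme of that step, had means of 2001.3, 1465.1 and 784.9 normalised counts and a log2 fold change of -1.35 in aged over young livers (SE 0.449, adjusted p = 0.0656). Hmox1, which breaks haem down, had 0.05 (adjusted p = 0.96). Among 15 iron-sulphur cluster genes, Bola3 fell by 0.35 in middle-aged and 0.33 in aged over young livers, calls kept in 14 and 6 of 24 alternatives, and Nfs1 by 0.30 in aged over young livers, a call (adjusted p = 0.0497) kept in 4 of 24 alternatives.

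**Figure D5:**
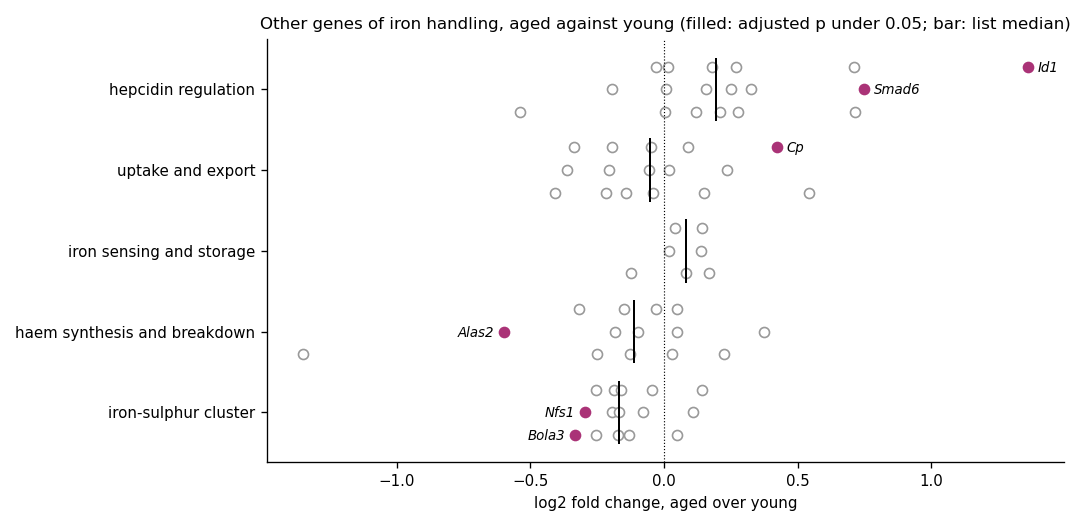
Log2 fold changes of aged over young livers (x axis) for the tested genes of 5 iron lists (rows), 1 symbol per gene, with a bar at each list's median. Filled symbols mark an adjusted p under 0.05: Id1 (1.36), Smad6 (0.75), Cp (0.42), Alas2 (-0.60), Bola3 (-0.33) and Nfs1 (-0.30).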

How the data were processed

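Total RNA from 12 mouse livers was sequenced by the authors, who deposited 1 table of whole-number counts per gene, without normalisation, with 92 spike-in rows left out of the tests here. The submitters' processing notes name STAR 2.5.2b, SAMtools 1.9, featureCounts, DESeq2 1.26.0, edgeR 3.28.1 and the build GRCm38, and the library kit keeps strand, but the annotation and the strand setting of the counting are not given in the sources used here. Symbols and positions came from GENCODE M21, which held 53360 of 53465 identifiers. All 12 columns were matched to samples by title.

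The 28449 genes with at least 1 count were fitted with DESeq2 1.42.0 in R 4.3.3, all 12 samples with age as the only term, as the study chose DESeq2 with a threshold of 0.05. Wald tests compared pairs of ages and a likelihood ratio test the 3 ages. Benjamini-Hochberg adjustment ran over the genes that passed default independent filtering, given above as genes tested. The p-values measure the spread between animals. Intervals are Wald intervals. Likeness used Pearson correlations of log2(normalised count + 1).

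The 10 genes and all lists were chosen with earlier results of these data known. Named genes were the 10 genes, 19 fixed genes of the wider lists, every other gene of those lists called in any test, the 3 genes most like Hamp, Bmp6, Tfrc and Scara5, and markers called or defining. Of these, 1 gene of the wider lists and 1 promoter search are not reported here.

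Other settings tried were the quasi-likelihood test of edgeR 4.0.16, voom with sample weights in limma 3.58.1, TMM factors, total gene counts as size factors, a minimum of 10 counts in 4 or more livers, dropping the independent filtering, only the 2 groups compared, a replicate block, the spike-in set as a term, fits within each set, near-identical copies added together, and each liver left out. Correlations of same-numbered livers between ages ran from -0.303 to 0.159, so the replicate numbers did not pair the livers. Following the wider-list calls through the alternatives, and the interaction of spike-in set and age, were added after seeing the data. The scripts were tested on simulated data.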

Additional observations from a re-analysis of the deposited data

Results flagged for a closer look

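For 3 genes, 1 young liver lay far from the rest of its group by Dixon's criterion for 4 values, in each case young replicate 2 as the highest: Trf at 12325.8 normalised counts, Fth1 at 17244.5 and Scara5 at 267.5. They were 3 of 27 groups of 4 livers examined, and chance flags about 1 group in 20. The log2 fold change of Scara5 without that liver was -1.83 in middle-aged over young and -1.19 in aged over young livers, and that of Trf in aged over young livers turned from -0.10 to 0.03.

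The spike-in rows, which no comparison used, held 1.59% of the counts in the library with the lowest share and 10.6% in that with the highest, young replicate 2. By age the share was 3.50% to 10.6% in young, 1.59% to 2.73% in middle-aged and 1.87% to 3.51% in aged livers.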

How the results depend on the processing

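Scara5 kept its direction and call in both comparisons with young livers in all 24 alternatives, Tfrc (aged over young) in 23, and Bmp6 (middle-aged over young) in 19 of the 20 that gave it an adjusted p. Hamp (aged over young) kept its call in 19 of 24. Percentages in brackets give the share of all genes tested that was called in the same fit. The number of the 9 genes called in middle-aged over young livers was 2 (6.41%). It was 1 in set A (2.18%) and 4 in set B (3.64%). In aged over young livers it was 3 (3.58%), and 5 with total gene counts as size factors (6.06%). There it was 1 in set A (1.24%) and 5 in set B (4.22%). Aged over middle-aged it was 0 (1.14%), and 1 (Hamp) in set B (2.47%). Across 3 ages it was 4 (6.96%), and 2 in edgeR (1.93%) and 1 in set A (2.01%). Leaving out 1 liver gave 1 to 4 (2.83% to 9.72%), 2 to 6 (1.77% to 10.5%), 0 to 0 (0.322% to 1.85%) and 3 to 7 (4.07% to 13.3%). Without aged replicate 1 the counts were 4 (9.72%), 6 (10.5%), 0 (1.85%) and 7 (13.3%). Without young replicate 2 the first was 4 (2.83%). Without middle-aged replicate 2 (4.05%) or 4 (4.87%) the first was 1, Bmp6 having no adjusted p. Without young replicate 3 (2.43%) or aged replicate 3 (1.77%) the second was 2, Hamp being lost.

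Reversed values, none of them called, were in aged over young livers Trf 0.0244 and Fth1 0.058 with total gene counts, Slc40a1 -0.0466 and Fth1 0.0274 in set A, and Trf 0.0329 without young replicate 2. In aged over middle-aged livers they were Slc40a1 -0.257 and Ftl1 0.0196 in set A, and Trf -0.0475 and Fth1 -0.0169 in set B. Leaving out 1 liver there gave Trf -0.0212 and Fth1 -0.0316 without aged replicate 1, Slc40a1 -0.0209, -0.0665 and -0.0806 without middle-aged replicate 2, aged replicate 3 and aged replicate 4, and Ftl1 0.017 and 0.0138 without aged replicates 2 and 3. Over the left-out livers Trf ranged from -0.221 to 0.0329 in aged over young livers. In aged over middle-aged livers Trf ranged from -0.0212 to 0.169, Slc40a1 from -0.0806 to 0.188, Fth1 from -0.0316 to 0.117 and Ftl1 from -0.152 to 0.017. The cause was not tested, beyond the fewer samples of the smaller fits. Total gene counts moved the median log2 fold change of all genes to 0.117 and 0.124 in the comparisons with young livers.

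With the replicate block the counts of the 9 genes were 3, 3, 0 and 3, with Hamp called in middle-aged over young livers and Bmp6 lost across 3 ages. All-gene calls, in the same order, were 727, 484, 117 and 865, and 385, 655, 426 and 451 with the block, 280, 172, 13 and 234 in edgeR, 702, 356, 58 and 667 in limma, 443, 321, 62 and 611 without independent filtering, and 1000, 787, 79 and 1155 with total gene counts. Fits of only the 2 groups called 1166, 290 and 129. Low counts limit Bmp6 and Hamp2.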
